A study of Homo sapiens with 40 samples.

Results

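TGFβ ligands are made as latent complexes, act through a pair of serine/threonine kinase receptors, and are held in the extracellular matrix until they are released. This report describes 10 genes of that machinery: the ligands TGFB1, TGFB2 and TGFB3, the receptors TGFBR1, TGFBR2 and TGFBR3, the latent TGFβ binding proteins LTBP1, LTBP2 and LTBP3, and VEPH1, which codes for a modulator of TGFβ receptor signalling. They were chosen by gene symbol among the 60708 genes of the count tables, and all 10 were found. Each TGFβ ligand is folded together with its own propeptide, which keeps it inactive, and the LTBPs tether this small latent complex to fibrillin and fibronectin fibres. Released ligand binds the type II receptor TGFBR2, which recruits and phosphorylates the type I receptor TGFBR1, and TGFBR1 then phosphorylates SMAD2 and SMAD3, which bind SMAD4 and enter the nucleus. TGFBR3, also called betaglycan, is a co-receptor without kinase activity that presents ligand, above all TGFβ2, to TGFBR2. In the mammary epithelium TGFβ restrains growth, while in carcinoma cells it is also known for epithelial-mesenchymal transition and invasion.

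RNA-seq counts of 24 libraries were analysed, 3 in each of 8 groups, and the 16 ATAC-seq samples of the series were not analysed here. MI-spheres are 3D cultures of the normal-like breast epithelial line MCF-10A, and MII-spheres are 3D cultures of its HRAS-transformed derivative MCF-10AneoT; both were left unstimulated (Ctrl) or stimulated with recombinant TGFβ1 (TGFβ) at 2.5 ng/ml for 16 h. MDA-MB-231, a triple-negative breast carcinoma line, was grown as a monolayer without added TGFβ, either unmodified (WT) or after CRISPR/Cas9 editing of SNAI2, the gene of the repressor SLUG, and expansion of single-cell colonies (SLUG KO). Further MDA-MB-231 cells received a control siRNA (Csi) or siRNAs against SMAD2, SMAD3 and SMAD4 (SMAD KD). The labels call the libraries of a group biological replicates, and they do not tie the SLUG KO libraries to separate clones, so p-values measure the spread between these libraries only.

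Total counts ranged from 14124688 to 38406952 per library. The targeted genes were examined before the 10 genes. SMAD2, SMAD3 and SMAD4 were lower in SMAD KD than in Csi by log2 fold changes of -1.92, -0.69 and -1.73, and HRAS was 5.45-fold higher in unstimulated MII- than in MI-spheres. SNAI2 mRNA was 2.15-fold higher in SLUG KO than in WT (1.92-fold without WT replicate 2), and a transcript level does not show whether small edits in the gene were made. The paper states that it checked the knockout clones by ddPCR and immunoblotting. Both sphere lines expressed CDH1 (521 to 726 CPM, counts scaled to a common library size with TMM factors), and MDA-MB-231 cells expressed VIM (568 to 1044 CPM). The 5 markers of basal mammary epithelium summed to 738 to 756 CPM in unstimulated and 1317 to 1411 CPM in stimulated MI-spheres and to 763 to 811 and 1230 to 1252 CPM in MII-spheres, where TP63 (0.468 to 2.84 CPM, against 48.8 to 92.7 CPM in MI-spheres) and KRT5 were lower and KRT14, EPCAM and CDH1 higher than in the MI-spheres of the same treatment. Of 4 leukocyte markers all were under 1 CPM in MI-spheres, and in MII-spheres only LYZ was above it (35.1 to 45.8 CPM). The 3 endothelial markers summed to 31.3 to 34.5 CPM in unstimulated and 13.2 to 14.6 CPM in stimulated MI-spheres, where CDH5 went from a mean of 22.2 to 2.20 CPM, and to 96.1 to 116.8 CPM in MII-spheres, mostly PECAM1 (89.3 to 106.1 CPM). The 4 fibroblast markers summed to 12.4 to 19.8 CPM in MI-spheres, led by DCN, to 0.132 to 0.815 CPM in MII-spheres and to 47.7 to 86.8 CPM in WT, SLUG KO, Csi and SMAD KD, led by COL1A2. The part of these markers in the results was not tested.

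WT replicate 2 stood apart before any test: its log2 CPM correlated across genes with WT 1 and WT 3 at r = 0.959 and 0.955, where the other pairs of replicates lay at 0.994 or above. Genes of high exon GC content were higher in it relative to genes of low GC content, by 0.97 on the log2 scale, against -0.45 and -0.32 in WT 1 and WT 3. Tests against WT are therefore given with and without this library, and levels of WT by library or with the values of WT 1 and WT 3. The 6 Csi and SMAD KD libraries carry another batch label and also differ in this trend (0.47 to 0.61, against -0.45 to -0.05 in the batch of the other libraries without WT 2), so that they were tested only against each other, and their ratios to WT 1 and WT 3 are given as a description.

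The 250 bases before the start of the canonical transcript were read from RefSeq promoters (GRCh38.p14) for 4 of the genes: TGFB2, which differed most between the sphere lines, TGFBR1 and TGFBR2, which moved together with TGFβ stimulation and with SMAD depletion, and LTBP3, which moved the other way in MII-spheres and after SMAD depletion. Capitals mark the letters searched for on both strands: the SMAD box with the letters CAGAC, which reads GTCTG on the opposite strand; the palindromic GC-rich SMAD element with the letters GGCGCC; the E-box bound by SLUG with the letters CAGGTG, which reads CACCTG on the opposite strand; and the AP-1 site with the letters TGACTCA, which reads TGAGTCA on the opposite strand. None of these motifs contains another.
TGFB2, chr1:218345086-218345335, plus strand: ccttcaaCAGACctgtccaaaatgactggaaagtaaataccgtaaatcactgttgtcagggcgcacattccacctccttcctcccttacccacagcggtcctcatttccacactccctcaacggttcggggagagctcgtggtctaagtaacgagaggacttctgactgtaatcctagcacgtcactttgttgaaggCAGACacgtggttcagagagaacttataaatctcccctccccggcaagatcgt
TGFBR1, chr9:99104863-99105112, plus strand: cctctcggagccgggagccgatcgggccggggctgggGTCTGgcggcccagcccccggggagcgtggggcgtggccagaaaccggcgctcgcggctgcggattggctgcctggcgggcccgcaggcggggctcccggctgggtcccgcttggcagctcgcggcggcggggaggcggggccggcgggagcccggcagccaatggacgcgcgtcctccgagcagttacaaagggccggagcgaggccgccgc
TGFBR2, chr3:30606351-30606600, plus strand: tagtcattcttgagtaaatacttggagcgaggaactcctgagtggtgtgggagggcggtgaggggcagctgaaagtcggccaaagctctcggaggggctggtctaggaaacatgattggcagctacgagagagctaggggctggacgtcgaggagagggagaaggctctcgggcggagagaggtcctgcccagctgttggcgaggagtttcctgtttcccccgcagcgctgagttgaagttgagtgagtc
LTBP3, chr11:65558360-65558609, minus strand: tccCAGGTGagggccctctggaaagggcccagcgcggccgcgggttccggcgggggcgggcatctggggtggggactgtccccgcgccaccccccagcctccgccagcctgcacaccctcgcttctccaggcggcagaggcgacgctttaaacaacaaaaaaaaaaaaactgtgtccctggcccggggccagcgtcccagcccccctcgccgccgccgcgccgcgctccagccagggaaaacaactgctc
The SMAD box occurred 2 times before TGFB2 (at -243 and -53 from the start) and at -213 before TGFBR1, and no searched motif occurred before TGFBR2. The window before LTBP3 held the E-box at -247. Among the other genes LTBP1 held the SMAD box at -85 and -61, LTBP2 the GC-rich SMAD element at -222 and VEPH1 the AP-1 site at -53, while the windows of TGFB1, TGFB3 and TGFBR3 held none of the motifs. Of the 35116 promoters in the table, 38.0% held the SMAD box, 16.4% the GC-rich SMAD element, 17.5% the E-box and 4.2% the AP-1 site, so that SMAD boxes were found before 3 of the 10 genes against 38.0% of all promoters.

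All 3 ligand genes differed between unstimulated MI- and MII-spheres, TGFB2 and TGFB3 being higher and TGFB1 lower in MII-spheres. TGFB2 was at 1.58, 1.54 and 1.66 CPM in the 3 unstimulated MI-sphere libraries and at 78.8, 78.3 and 79.3 CPM in the MII-sphere libraries. The ranges lie far apart, and TGFB2 was 49.7-fold higher in MII-spheres (log2 fold change 5.64, SE 0.09, adjusted p = 9.49e-48, edgeR's quasi-likelihood test). TGFB1 went the other way, from 13.8, 13.2 and 12.9 CPM in MI-spheres to 4.50, 5.02 and 4.83 CPM in MII-spheres. It was 2.74-fold lower in the transformed line (log2 fold change -1.45, SE 0.11, adjusted p = 8.55e-17). TGFB3, at 2.26 to 2.62 CPM in MI- and 8.63 to 9.99 CPM in MII-spheres, was 3.70-fold higher there (log2 fold change 1.89, SE 0.15, adjusted p = 7.73e-17).

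Per length and without GC-content correction, TGFB1 held the largest share of ligand transcripts in MI-spheres and TGFB2 in MII-spheres. Shares were taken of the summed TPM (counts scaled by exon length and library total) of the 3 ligands within each library. TGFB1 held 84.7% ± 0.704 (SD, n = 3) of the ligand transcripts in unstimulated MI-spheres and 9.02% ± 0.542 in MII-spheres. The share of TGFB2 was 5.48% ± 0.308 in MI- and 80.2% ± 0.349 in MII-spheres. TGFB3 made up 9.78% ± 0.538 in MI- and 10.8% ± 0.818 in MII-spheres. After TGFβ stimulation TGFB1 still held 86.5% ± 0.441 in MI-spheres and TGFB2 80.3% ± 0.486 in MII-spheres. MDA-MB-231 cells gave no single answer: TGFB2 held 75.4%, 28.2% and 75.8% in WT 1, WT 2 and WT 3, 76.1% to 80.2% in the SLUG KO libraries, and 21.1% to 23.2% in the Csi libraries of the other batch. TGFB1 and TGFB2 differ in exon GC content (62.1% and 42.3%). The GC trend of the sphere libraries (-0.38 to -0.11) lay nearer to that of WT 1 and WT 3 than to that of WT 2 or Csi. How far the shares in the spheres depend on GC content was not tested. Of the TGFB2 exon bases, 22.7% are also annotated to TGFB2-OT1 on the same strand, which was counted at 0 in all libraries, and strand was not used in counting, so that reads of the antisense genes TGFB2-AS1 and TGFB3-AS1 cannot be told apart in the bases they share.

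TGFβ stimulation lowered TGFB2 in both lines, and TGFB1 and TGFB3 were not called with TMM scaling. In MI-spheres TGFB2 fell from 1.58, 1.54 and 1.66 CPM to 0.658, 0.985 and 0.894 CPM, on 12 to 41 counts per library. The ranges do not overlap, and the level was 1.97-fold lower (log2 fold change -0.98, SE 0.29, adjusted p = 0.00777); with DESeq2 the adjusted p was 0.0734. In MII-spheres it fell from 78.8, 78.3 and 79.3 CPM to 70.8, 75.0 and 73.5 CPM, which is 1.10-fold (log2 fold change -0.14, SE 0.05, adjusted p = 0.0137). That small change lost its call with DESeq2 (adjusted p = 0.155), without the low-count filter (0.126), in the fit of all 12 sphere libraries (0.123) and without MII TGFβ replicate 1 (-0.11, adjusted p = 0.105). TGFB1 was at 13.9, 14.4 and 12.4 CPM in stimulated MI-spheres (log2 fold change -0.06, 95% interval -0.26 to 0.15) and at 3.92, 4.46 and 4.01 CPM in stimulated MII-spheres (-0.25, -0.59 to 0.08). With total counts in place of TMM scaling TGFB1 was called lower in MII-spheres (-0.39, adjusted p = 0.0448). For TGFB3 the log2 fold changes were 0.02 (-0.40 to 0.45) and -0.07 (-0.32 to 0.17).

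Both signalling receptors rose with TGFβ in both sphere lines. TGFBR1, the type I kinase, was at 60.0, 60.5 and 62.7 CPM in unstimulated and at 85.7, 80.4 and 94.2 CPM in stimulated MI-spheres. The MII-sphere libraries held 68.5, 63.3 and 69.2 CPM without and 92.4, 81.9 and 84.9 CPM with stimulation. Each stimulated library lies above each unstimulated library of its line, and TGFBR1 rose 1.34-fold in MI- (log2 fold change 0.42, SE 0.06, adjusted p = 3.81e-06) and 1.26-fold in MII-spheres (0.34, SE 0.05, adjusted p = 3.52e-07). TGFBR2, the type II kinase that binds ligand, went from 63.5, 60.1 and 62.0 CPM to 90.4, 85.3 and 85.6 CPM in MI-spheres. In MII-spheres it went from 153, 159 and 152 CPM to 197, 204 and 202 CPM. Its increase was 1.33-fold in MI- (log2 fold change 0.41, SE 0.06, adjusted p = 3.13e-06) and 1.27-fold in MII-spheres (0.34, SE 0.04, adjusted p = 1.28e-10). The responses of the 2 lines differed by -0.08 (95% interval -0.25 to 0.09) for TGFBR1 and by -0.06 (-0.20 to 0.08) for TGFBR2 on the log2 scale, which did not pass the interaction test (adjusted p = 0.564 and 0.615).

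In total 5 of the 9 genes tested were called in MI-spheres, 4 higher and 1 lower, where 56.0% of all 16863 genes tested were called, 28.7% higher and 27.4% lower. In MII-spheres 7 of 10 were called, 5 higher and 2 lower. The share over all 16396 genes was 57.6% there, with 29.9% higher and 27.6% lower. Both counts lay near the share of all genes called. VEPH1, among the 5 higher in MII-spheres, passed the low-count filter through the stimulated group. The median log2 fold change was 0.02 over the 9 genes in MI- and 0.05 over the 10 genes in MII-spheres, against -0.02 over all genes in both lines. TMM scaling sets these medians: with total counts alone the median of all genes became -0.15 in both lines and the log2 fold changes shifted with it, to 0.29 and 0.27 for TGFBR1 and TGFBR2 in MI- and to 0.20 and 0.21 in MII-spheres, all 4 still called. Over all genes the split went from 4833 higher and 4613 lower to 3271 and 6308 in MI-spheres, and from 4906 and 4532 to 3193 and 6407 in MII-spheres. The test of a different response in the 2 lines called 5 of the 10 genes (TGFB2, TGFBR3, LTBP1, LTBP2 and LTBP3), 2 with a higher and 3 with a lower response in MII-spheres, where 22.4% of the 18591 genes tested were called, 12.6% higher and 9.75% lower.

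TGFBR3, the betaglycan co-receptor, rose in MI-spheres, and its response differed between the lines. Its levels were 3.16, 2.70 and 2.65 CPM in unstimulated and 5.27, 6.90 and 7.66 CPM in stimulated MI-spheres. This was a 2.20-fold increase without overlap (log2 fold change 1.14, SE 0.17, adjusted p = 6.66e-06). MII-spheres held 2.78, 1.74 and 1.89 CPM without and 1.22, 1.60 and 1.70 CPM with TGFβ, on 18 to 52 counts per library. There every stimulated library was below every unstimulated one, yet the log2 fold change of -0.50 (SE 0.28) was not called (adjusted p = 0.12); with total counts in place of TMM scaling it was (-0.63, adjusted p = 0.0472). The difference between the responses was -1.61 (SE 0.31, adjusted p = 0.000102) on the log2 scale.

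**Figure D1:**
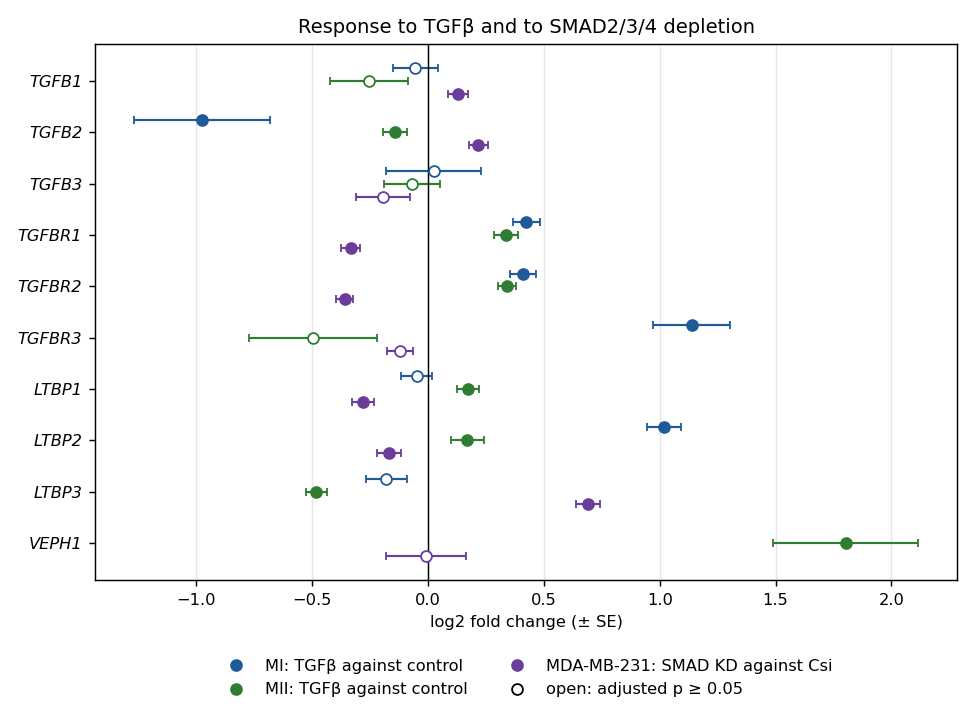
Log2 fold changes (horizontal axis, bars ± SE) of the 10 genes with TGFβ in MI- and MII-spheres and with SMAD2/3/4 depletion in MDA-MB-231 cells, 3 against 3 libraries each, with filled points for adjusted p under 0.05. TGFBR1 and TGFBR2 lie at 0.34 to 0.42 with TGFβ and at -0.33 and -0.36 with SMAD depletion, and VEPH1 in MI-spheres was not tested.

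The latent binding proteins responded each in its own way. LTBP2, a matrix protein of the LTBP family that does not bind latent TGFβ, rose in MI-spheres. It was at 39.1, 35.4 and 32.6 CPM without and at 79.5, 80.3 and 70.4 CPM with TGFβ. The increase was 2.03-fold (log2 fold change 1.02, SE 0.08, adjusted p = 3.22e-10). In MII-spheres LTBP2 was at 29.7, 37.2 and 32.1 CPM and then at 39.5, 36.8 and 39.2 CPM, with overlapping ranges. That increase of 1.12-fold (log2 fold change 0.17, SE 0.07, adjusted p = 0.0324) was lost without MII Ctrl 1 (0.11, adjusted p = 0.196), MII Ctrl 3 (0.15, 0.0984), MII TGFβ 1 (0.16, 0.084) or MII TGFβ 3 (0.16, 0.0703), and with total counts in place of TMM scaling (0.04, adjusted p = 0.665). The responses of the lines differed by -0.83 (SE 0.11, adjusted p = 1.2e-07).

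LTBP3, which binds latent TGFβ complexes, fell with TGFβ in MII-spheres from 227, 264 and 232 CPM to 182, 167 and 183 CPM. The groups do not overlap, and the level was 1.40-fold lower (log2 fold change -0.48, SE 0.04, adjusted p = 1.01e-13). MI-spheres held 58.5, 54.6 and 52.6 CPM without and 51.8, 59.6 and 43.5 CPM with stimulation, which overlap (log2 fold change -0.18, SE 0.09, adjusted p = 0.0912). Without MI TGFβ replicate 2 the change in MI-spheres was -0.30 and called (adjusted p = 0.00168), and with GC-content and gene-length correction it was 0.01. LTBP1, the LTBP best known for storing latent TGFβ1 in the matrix, was at 78.0, 76.4 and 75.4 CPM in unstimulated and at 87.2, 89.5 and 88.5 CPM in stimulated MII-spheres. It rose 1.13-fold there (log2 fold change 0.17, SE 0.05, adjusted p = 0.00223), but not with total counts in place of TMM scaling (0.04, adjusted p = 0.483). In MI-spheres it was at 46.6, 44.2 and 40.2 CPM and at 45.5, 45.1 and 43.6 CPM (log2 fold change -0.05, 95% interval -0.19 to 0.09).

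VEPH1 rose with TGFβ in MII-spheres from a low level. It was at 0.265, 0.803 and 0.944 CPM (4, 24 and 17 counts) without and at 2.64, 2.80 and 2.17 CPM (39, 42 and 32 counts) with stimulation. Each stimulated library exceeded each unstimulated one, with a 3.49-fold increase (log2 fold change 1.80, SE 0.31, adjusted p = 2.38e-06); the gene passed the low-count filter through the stimulated group. MI-spheres held 1 to 7 counts per library in both conditions, too few for the filter. Without the filter VEPH1 was called higher in unstimulated MII- than MI-spheres (1.89, SE 0.53, adjusted p = 0.00169), on 1 to 24 counts per library and with overlapping CPM. The interaction of line and TGFβ was 1.98 (SE 0.80, adjusted p = 0.0725) and passed the threshold without MI Ctrl 3 (2.31, adjusted p = 0.0369) or MI TGFβ 2 (2.44, adjusted p = 0.0403).

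Unstimulated MII-spheres differed from MI-spheres in receptors and latent binding proteins as well. TGFBR2 was 2.52-fold higher in MII-spheres (log2 fold change 1.33, SE 0.04, adjusted p = 3.04e-33), at 152 to 159 CPM against 60.1 to 63.5 CPM. TGFBR1 differed by 1.10-fold only (0.14, SE 0.05, adjusted p = 0.0147), and that call was lost with DESeq2 (adjusted p = 0.135), without the low-count filter (0.147) and without MI Ctrl 1 (0.12, adjusted p = 0.0756), MI Ctrl 2 (0.13, 0.0678), MII Ctrl 1 (0.12, 0.0549) or MII Ctrl 3 (0.11, 0.0934). Per length, TGFBR2 made up 49.3% ± 0.847 (SD, n = 3) of the summed receptor TPM in MI-spheres and 69.2% ± 1.57 in MII-spheres, while TGFBR1 made up 48.9% ± 1.02 and 30.1% ± 1.46.

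LTBP3 was 4.40-fold higher in unstimulated MII- than in MI-spheres (log2 fold change 2.14, SE 0.05, adjusted p = 4.44e-41), at 227 to 264 CPM against 52.6 to 58.5 CPM. LTBP1 was 1.76-fold higher (0.82, SE 0.05, adjusted p = 1.26e-19). Within the summed TPM of the 3 LTBP genes LTBP3 held 34.4% ± 0.715 in MI- and 61.6% ± 1.36 in MII-spheres. LTBP2 (-0.09, 95% interval -0.23 to 0.05) and TGFBR3 (-0.45, -0.89 to -0.01) were not called, with adjusted p of 0.254 and 0.0676. Leaving out MII Ctrl 1 gave a call for TGFBR3 (-0.66, adjusted p = 0.0135) and leaving out MII Ctrl 2 gave one for LTBP2 (-0.20, adjusted p = 0.0121). In all, 7 of the 9 genes tested were called, 6 higher and 1 lower in MII-spheres, where 64.2% of all 17862 genes tested were called, 31.7% higher and 32.5% lower. With total counts the median of all genes moved from 0.02 to 0.11 and the split from 5665 higher and 5809 lower to 6669 and 4745. As DEGs, with an absolute log2 fold change above 1, counted 5 of the 9, among 20.1% of all genes: TGFB1, TGFB2, TGFB3, TGFBR2 and LTBP3.

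Against unstimulated MI-spheres, MDA-MB-231 WT cells carried much more TGFBR3 and TGFB2. TGFBR3 was at 49.2, 39.2 and 50.1 CPM in WT and at 2.65 to 3.16 CPM in MI-spheres, 16.2-fold higher (log2 fold change 4.01, SE 0.21, adjusted p = 1.02e-05; without WT 2 4.08, adjusted p = 6.38e-14). TGFB2 was at 123, 81.2 and 127 CPM, 68.7-fold higher than in MI-spheres (6.10, SE 0.27, adjusted p = 6.12e-06; without WT 2 6.25, adjusted p = 4.55e-16). TGFBR1 (1.70, SE 0.24), TGFBR2 (1.21, SE 0.18) and VEPH1 (4.27, SE 0.55) were also higher. Without WT 2 their log2 fold changes were 1.90, 1.05 and 4.50, all called. VEPH1 stood against 1 to 7 counts in MI-spheres and passed the low-count filter through WT. A filter of at least 10 counts in every library left it untested. TGFB1 was called (1.89, SE 0.67, adjusted p = 0.0468; without WT 2 0.56, adjusted p = 0.000116) with WT libraries at 19.9, 108.2 and 20.2 CPM, and lost the call without MI Ctrl 1, 2 or 3 (1.88, 1.84 and 1.82, adjusted p = 0.112, 0.119 and 0.124). Without WT 2, LTBP2 (-0.77, adjusted p = 5.14e-06) and LTBP3 (-2.08, adjusted p = 1.45e-11) were called lower in MDA-MB-231 cells. With all 3 WT libraries LTBP3 was not called (-1.03, adjusted p = 0.156), but it was without the low-count filter (-1.10, adjusted p = 0.0324), with a replicate block (-1.39, 0.0323), with GC-content correction (-1.37, 0.00284), with GC-content and gene-length correction (-1.46, 0.000486) and in the fit of all 18 libraries of the batch (-0.96, 0.0306). TGFB3 was called higher in that last fit (0.60, adjusted p = 0.0321) and not with the 6 libraries compared (0.54, adjusted p = 0.203) or without WT 2 (0.12, adjusted p = 0.636). LTBP1 was not called with (0.10) or without WT 2 (0.10). The count was 6 of 10 genes, VEPH1 included and all higher, where 54.0% of the 18732 genes tested were called, 28.1% higher and 25.9% lower. It was 8 of 10 without WT 2, again with VEPH1, where 74.9% of 19572 were. Line, 3D or monolayer culture and medium cannot be told apart here.

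**Figure D2:**
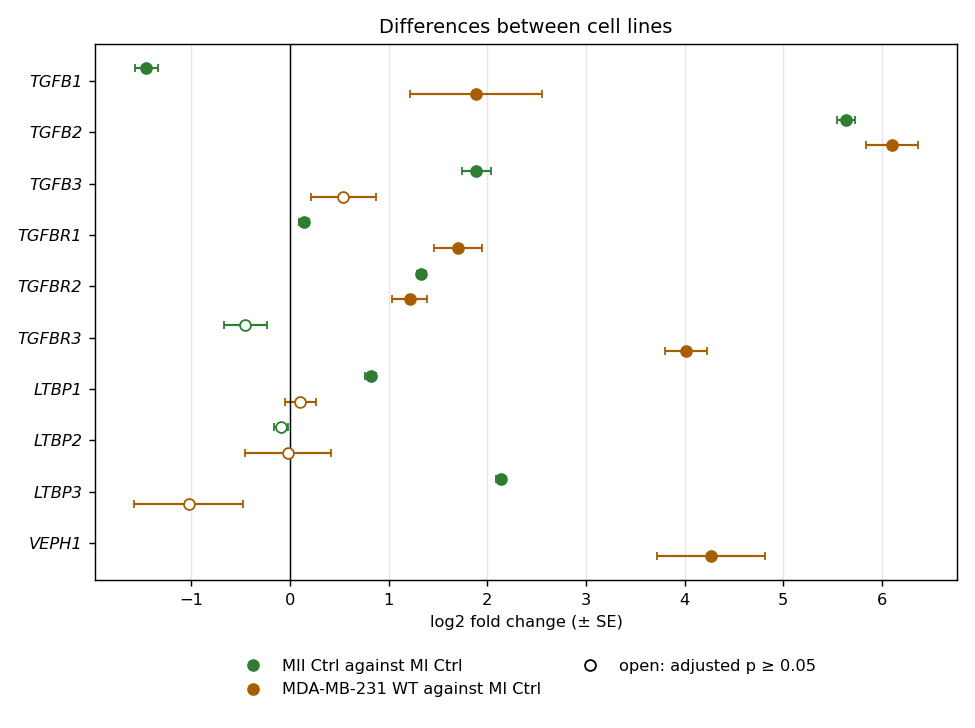
Log2 fold changes (horizontal axis, bars ± SE) of the 10 genes in unstimulated MII-spheres and in MDA-MB-231 WT cells, each against unstimulated MI-spheres, with filled points for adjusted p under 0.05. TGFB2 is at 5.64 and 6.10, TGFB1 at -1.45 and 1.89, and VEPH1 was not tested between the sphere lines.

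Depletion of SMAD2, SMAD3 and SMAD4 in MDA-MB-231 cells lowered both signalling receptors and raised LTBP3. TGFBR1 was at 209.7, 226 and 217 CPM in Csi and at 178, 165 and 178 CPM in SMAD KD. TGFBR2 was at 419, 446 and 436 CPM in Csi and at 339, 342 and 336 CPM in SMAD KD. Neither pair of groups overlaps, and the decreases were 1.26-fold (log2 fold change -0.33, SE 0.04, adjusted p = 1.1e-07) and 1.28-fold (-0.36, SE 0.04, adjusted p = 3.11e-09). LTBP3 was at 191, 170.5 and 168 CPM in Csi and at 286, 306 and 264 CPM in SMAD KD. It rose 1.61-fold (log2 fold change 0.69, SE 0.05, adjusted p = 1.21e-12), the largest change among the 10 genes in this comparison.

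Of the other genes LTBP1 fell from 89.1, 89.5 and 87.1 CPM to 72.5, 70.8 and 76.2 CPM (log2 fold change -0.28, SE 0.05, adjusted p = 1.14e-05). LTBP2 fell from 61.5, 63.0 and 61.1 CPM to 59.1, 54.3 and 52.3 CPM (-0.17, SE 0.05, adjusted p = 0.00892), a call lost without SMAD KD 3 (-0.13, adjusted p = 0.0647). The ligand TGFB2 rose from 132, 143 and 136 CPM to 157, 161 and 162 CPM (0.22, SE 0.04, adjusted p = 0.000104). TGFB1 was at 263, 252 and 252 CPM and at 276, 299 and 267 CPM (0.13, SE 0.04, adjusted p = 0.0187). The file names place SMAD KD 1 and 2 on another flow cell than the other 4 libraries, and with flow cell in the model TGFB1 was not called (0.07, adjusted p = 0.441), nor was it without Csi 2 (0.12, 0.07), Csi 3 (0.12, 0.0819) or SMAD KD 2 (0.08, 0.171). TGFB3 (-0.20, 95% interval -0.43 to 0.04), TGFBR3 (-0.12, -0.24 to -0.01) and VEPH1 (-0.01, -0.36 to 0.34) were not called. The count was 7 of 10, 3 higher and 4 lower, where 36.0% of the 17696 genes tested were called, 16.3% higher and 19.7% lower; none of the 7 passed an absolute log2 fold change of 1, as did 1.9% of all genes. TGFBR1 and TGFBR2, higher with TGFβ in both sphere lines, were lower after SMAD depletion, and LTBP3, lower with TGFβ in MII-spheres, was higher; the lines, culture and batches differ between these comparisons.

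LTBP1 was the gene called between SLUG KO and WT. It was at 23.7, 23.1 and 23.1 CPM in SLUG KO and at 46.7, 45.9 and 48.8 CPM in WT, where WT 2 lies with the others. The level was 2.06-fold lower in SLUG KO (log2 fold change -1.04, SE 0.15, adjusted p = 0.0148). This is 1 of 10 genes, where 3.33% of the 17428 genes tested were called, 1.45% higher and 1.89% lower. The log2 fold change kept between -1.05 and -1.01 with each library left out in turn, but the adjusted p rose to 0.146, 0.143 and 0.159 without SLUG KO 1, 2 or 3, to 0.0744 without WT 1 and to 0.0525 without WT 3, and fell to 4.48e-07 without WT 2.

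Without WT 2, 6 of 10 genes were called between SLUG KO and WT, where 31.2% of the 17909 genes tested were called. TGFBR3 was at 76.8, 81.5 and 86.7 CPM in SLUG KO and at 49.2, 39.2 and 50.1 CPM in WT, without overlap; its log2 fold change was 0.80 (SE 0.17, adjusted p = 0.0599) with all libraries and 0.71 (SE 0.09, adjusted p = 3.18e-05) without WT 2. TGFB2, at 191, 175 and 210.1 CPM in SLUG KO and at 123, 81.2 and 127 CPM in WT, went from 0.77 (adjusted p = 0.118) to 0.61 (adjusted p = 0.000122). LTBP2 was at 34.0, 31.2 and 38.5 CPM against 22.5, 63.2 and 20.5 CPM and turned from -0.06 (adjusted p = 0.949) to 0.67 (adjusted p = 0.000261). TGFB1, at 30.7, 23.1 and 26.7 CPM against 19.9, 108.2 and 20.2 CPM, turned from -0.91 (adjusted p = 0.483) to 0.41 (adjusted p = 0.014). TGFBR2 went from 0.09 (adjusted p = 0.811) to 0.24 (adjusted p = 0.0402). LTBP3, at 15.8, 14.2 and 16.4 CPM in SLUG KO and at 13.1, 55.1 and 13.5 CPM in WT, turned from -0.84 to 0.20 and TGFBR1 from 0.14 to -0.06, without a call either way. TGFB3 (-0.65 and -0.23) and VEPH1 (-0.20 and -0.47) were not called with or without WT 2. TGFB2 and TGFBR3 were also called with all 3 WT libraries after GC-content correction (0.70 and 0.73, adjusted p = 0.00961 and 0.00628).

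The 10 genes themselves show how WT 2 differs. TGFB1 and LTBP3, with the highest exon GC contents (62.1% and 62.2%), were 5.41- and 4.13-fold higher in WT 2 than in the mean of WT 1 and WT 3. TGFBR1, with the lowest (38.8%), was 1.72-fold lower, and VEPH1 (42.6%) 2.13-fold lower. LTBP1, at 50.7%, differed by 1.04-fold. In the Csi libraries, of the same line but another batch, TGFB1 and LTBP3 were 12.8- and 13.2-fold above WT 1 and WT 3, TGFBR2 3.32-fold, and TGFB2 1.10-fold. The batches differ in more than this trend: the gene RN7SL1 took 0.000136% to 0.000219% of the counts in Csi and 0.643% to 2.13% in WT. Whether GC content or another difference between the libraries sets these ratios was not tested.

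**Figure D3:**
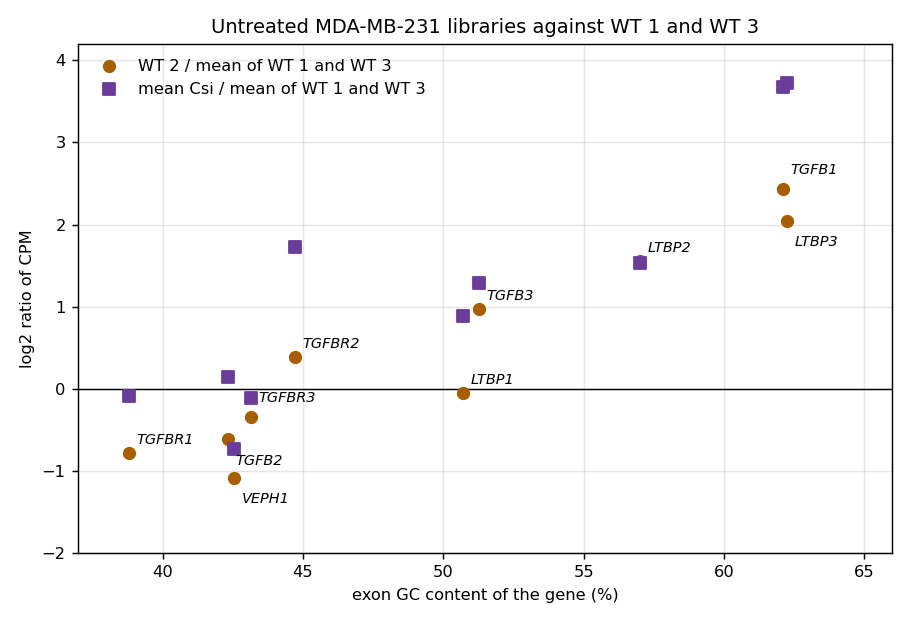
Log2 ratio of CPM (vertical axis) of WT replicate 2 and of the mean of the 3 Csi libraries to the mean of WT 1 and WT 3, plotted for the 10 genes against their exon GC content in percent. The ratios of WT 2 run from -1.09 for VEPH1 to 2.44 for TGFB1.

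The order of the 6 groups of the same batch is given first with all 3 WT libraries. TGFBR1 and TGFBR3 were highest in MDA-MB-231 cells, LTBP3 in MII-spheres and LTBP2 in stimulated MI-spheres. TGFB1 overlapped between WT (49.4 CPM) and SLUG KO (26.8 CPM) and between the MI groups (13.6 and 13.3 CPM), and was lowest in MII Ctrl (4.78 CPM) and MII TGFβ (4.13 CPM), which do not overlap. TGFB2 separated all 6 groups, in the order SLUG KO (192 CPM), WT (110.2 CPM), MII Ctrl (78.8 CPM), MII TGFβ (73.1 CPM), MI Ctrl (1.59 CPM) and MI TGFβ (0.846 CPM). For TGFBR1 the order of means was SLUG KO (224 CPM), WT (199.7 CPM), MI TGFβ (86.8 CPM), MII TGFβ (86.4 CPM), MII Ctrl (67.0 CPM) and MI Ctrl (61.1 CPM), and SLUG KO and WT as well as MI TGFβ and MII TGFβ overlap. TGFBR2 was highest in MII TGFβ (201 CPM), and SLUG KO (156 CPM), MII Ctrl (155 CPM) and WT (144 CPM) overlap. TGFBR3 fell in the order SLUG KO (81.7 CPM), WT (46.2 CPM), MI TGFβ (6.61 CPM), MI Ctrl (2.84 CPM), MII Ctrl (2.13 CPM) and MII TGFβ (1.504 CPM), with overlap between MI Ctrl and MII Ctrl. For LTBP1 the order was MII TGFβ (88.4 CPM), MII Ctrl (76.6 CPM), WT (47.2 CPM), MI TGFβ (44.7 CPM), MI Ctrl (43.6 CPM) and SLUG KO (23.3 CPM), and the MI groups overlap. LTBP2 separated MI TGFβ (76.7 CPM) from the other 5 groups (33.0 to 38.5 CPM), which overlap with their neighbours.

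LTBP3 was highest in MII Ctrl (241 CPM) and MII TGFβ (177 CPM), and MI Ctrl (55.2 CPM), MI TGFβ (51.6 CPM), WT (27.2 CPM) and SLUG KO (15.5 CPM) each overlap with the next. TGFB3 was highest in MII Ctrl (9.15 CPM) and MII TGFβ (8.85 CPM), which overlap, as do WT (3.60 CPM), MI TGFβ (2.67 CPM), MI Ctrl (2.46 CPM) and SLUG KO (2.34 CPM). VEPH1 overlapped between WT (3.55 CPM), SLUG KO (3.14 CPM) and MII TGFβ (2.54 CPM), and was lower in MII Ctrl (0.670 CPM) and in MI-spheres (0.169 and 0.172 CPM), which overlap. With WT 1 and WT 3 alone, the mean of WT for TGFB1 (20.02 CPM) lay below that of SLUG KO and above the MI groups, without overlap. Likewise WT became the lowest group for LTBP2 (21.5 CPM) and LTBP3 (13.3 CPM), lay below SLUG KO and MII Ctrl for TGFBR2 (130.7 CPM) and above SLUG KO for VEPH1 (4.31 CPM), each without overlap with its neighbours. For TGFBR1 (232 CPM) WT moved above SLUG KO but still overlapped with it. The places of WT for TGFB2 (124.7 CPM), TGFB3 (2.73 CPM), TGFBR3 (49.6 CPM) and LTBP1 (47.8 CPM) were those given above. Across the 18 libraries of this batch, the gene with the most similar log2 CPM was ELF4 for TGFB1 (Pearson's r = 0.99), FZD7 for TGFB2 (0.988), FIBCD1 for TGFB3 (0.977), OGFRL1 for TGFBR1 (0.994), ITGB5 for TGFBR2 (0.978) and GALC for TGFBR3 (0.989). For the binding proteins these were MARCKSL1 with LTBP1 (0.964), SCARB1 with LTBP2 (0.935) and ASCC2 with LTBP3 (0.989), and for VEPH1 it was MAPRE2 (0.955). These values describe 14425 genes over the same 18 libraries of 3 lines, depth and GC trends included.

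Of 23 genes that store and activate latent TGFβ, 20 were tested in MI-spheres, where 17 rose and 2 fell, against 28.7% and 27.4% of all genes tested (median log2 fold change 0.70, against -0.02 over all genes). MMP2, a matrix metalloproteinase, rose from 2.73 ± 0.215 to 13.6 ± 1.55 CPM (mean ± SD, n = 3; log2 fold change 2.22, adjusted p = 2.62e-11), and ITGB8, a chain of the integrin that binds latent TGFβ, fell from 159 ± 3.50 to 139 ± 13.7 CPM (-0.28, adjusted p = 0.000472). In MII-spheres 11 of 18 rose and 3 fell, against 29.9% and 27.6% of all genes (median 0.22, against -0.02). PLAU, the urokinase that generates plasmin, rose from 9.86 ± 1.60 to 24.6 ± 3.14 CPM (1.25, adjusted p = 1.57e-15). LTBP4, the remaining LTBP gene, fell from 16.9 ± 1.98 to 9.24 ± 0.871 CPM (-0.92, adjusted p = 1.57e-10). The responses differed between the lines for 13 of 20 genes, 3 being higher and 10 lower in MII-spheres, against 12.6% and 9.75% of all genes. Among the 10 was FN1, the fibronectin that anchors LTBPs (-2.06, SE 0.08, adjusted p = 2.31e-22).

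After SMAD depletion 3 of 19 storage and activation genes rose and 8 fell, against 16.3% and 19.7% of all genes (median log2 fold change -0.09, against 0.00 over all genes). PLAU fell from 266 ± 4.72 to 142 ± 7.78 CPM (-0.91, adjusted p = 4.39e-17), and THBS1, a thrombospondin that activates latent TGFβ, rose from 931 ± 15.2 to 1243 ± 17.3 CPM (0.41, adjusted p = 9.09e-11). Between SLUG KO and WT 2 of 16 were higher and 1 lower, against 1.45% and 1.89% of all genes; without WT 2 these were 10 and 1 of 17, against 16.8% and 14.4%. FN1 was at 87.6 ± 8.05 CPM in SLUG KO and at 773 ± 180.5 CPM in WT (-3.17, SE 0.23, adjusted p = 0.00182; without WT 2 -2.95, adjusted p = 4.18e-11), and PLAT, the tissue plasminogen activator, at 1367 ± 67.4 and 335 ± 28.0 CPM (2.00, SE 0.16, adjusted p = 0.00222; without WT 2 2.05, adjusted p = 1.02e-09). Between the unstimulated sphere lines 11 of 20 were higher in MII and 7 lower, against 31.7% and 32.5% of all genes. ITGB3, among the 11, was at 124 ± 1.31 against 2.00 ± 0.172 CPM (5.95, adjusted p = 2.28e-51). Against MI-spheres 11 of 21 were higher in WT cells and 6 lower, against 28.1% and 25.9% of all genes; without WT 2 these were 11 and 8 of 21, against 36.6% and 38.3%. ITGB6 was at 301 ± 7.71 CPM in MI-spheres and at 0.200 ± 0.109 CPM in WT (log2 fold change -10.53, and -10.46 without WT 2).

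Accessory proteins and related receptors of the family showed no common direction. Of 25 tested in MI-spheres 8 rose and 8 fell (median log2 fold change 0.05), near the 28.7% and 27.4% of all genes, and of 24 in MII-spheres 10 rose and 6 fell (0.08), against 29.9% and 27.6% of all genes. CD109, a TGFβ co-receptor of the cell surface, rose in MI-spheres from 76.7 ± 2.02 to 185 ± 14.1 CPM (1.19, adjusted p = 9.58e-13), and BAMBI, a pseudoreceptor that inhibits signalling, fell from 23.3 ± 0.608 to 8.15 ± 0.699 CPM (-1.60, adjusted p = 5.44e-12). NRP1 rose in MI- (1.12, adjusted p = 4.48e-10) and MII-spheres (0.84, adjusted p = 6.6e-15), while NRP2 fell in MI- (-1.38, adjusted p = 3.46e-13) and MII-spheres (-0.41, adjusted p = 9.74e-11). The interaction was called for 9 of 25, 7 higher and 2 lower in MII-spheres (12.6% and 9.75% of all genes), with BAMBI at 1.70 (adjusted p = 1.33e-14). SMAD depletion raised 7 of 25 and lowered 3 (16.3% and 19.7% of all genes), BAMBI going from 15.4 ± 1.27 to 22.0 ± 2.07 CPM (0.52, adjusted p = 7.65e-06). In SLUG KO 1 of 24 was called, lower, where 1.89% of all genes were; without WT 2, 9 of 24 were higher and 5 lower, against 16.8% and 14.4% of all genes. Between the sphere lines 10 of 25 were higher in MII and 8 lower, near the 31.7% and 32.5% of all genes. In WT cells 10 of 25 were higher than in MI-spheres and 7 lower (28.1% and 25.9% of all genes), and without WT 2 12 and 9 of 25 (36.6% and 38.3%).

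Among 13 SMADs and feedback targets, which carry and read out the signal, 5 rose and 3 fell in MI-spheres, and 3 of 12 rose and 4 fell in MII-spheres. These counts lay near the shares of all genes, 28.7% and 27.4% in MI- and 29.9% and 27.6% in MII-spheres. SMAD3 fell in both lines, from 141 ± 7.22 to 62.0 ± 2.94 CPM in MI- (-1.27, adjusted p = 2.24e-13) and by 1.70-fold in MII-spheres (-0.77, adjusted p = 1.47e-21). PMEPA1, a feedback inhibitor, rose more in MI- (1.44) than in MII-spheres (0.24), with an interaction of -1.19 (SE 0.06, adjusted p = 9.27e-18). SMAD7, an inhibitory SMAD, was not called in either line (0.11 and -0.14, adjusted p = 0.365 and 0.315). The interaction was called for 7 of 13, 3 higher and 4 lower in MII-spheres, against 12.6% and 9.75% of all genes. After SMAD depletion 5 of 12 rose and 5 fell (16.3% and 19.7% of all genes), the 3 targeted SMADs among the latter. SLUG KO had 1 higher and 4 lower of 12, against 1.45% and 1.89% of all genes, and 2 and 5 of 12 without WT 2, against 16.8% and 14.4%. Between the sphere lines 7 of 13 were higher in MII and 3 lower (31.7% and 32.5% of all genes). In WT cells 2 of 12 were higher than in MI-spheres and 5 lower (28.1% and 25.9% of all genes), and without WT 2 3 and 7 of 12 (36.6% and 38.3%).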

How the data were processed

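The deposited values are raw counts per gene, which the authors made by trimming reads with Trimmomatic, aligning them with STAR and counting exons with featureCounts (Subread 2.0.0; per the file headers GENCODE 38, read pairs with mapping quality of at least 30, no strand option). Symbols came from GENCODE 44 for 60463 of the 60708 genes. Genes passing edgeR's filterByExpr were tested with the quasi-likelihood test on TMM-scaled counts (edgeR 4.0.16, R 4.3.3), 3 against 3 libraries, and p-values were adjusted by Benjamini and Hochberg's method across the genes that passed, with a threshold of 0.05. The fit was tested on simulated data with 200 changed genes in each comparison. Of changes of 1 on the log2 scale it called 8% between SLUG KO and WT and 7.84% between WT and MI-spheres. In the other comparisons it called 83.3% to 95.7% of them. Adjusted p-values depend on how many genes change, and the real tests called more genes than these 200. They called 3.33% of all genes between SLUG KO and WT and 54.0% between WT and MI-spheres. The simulated shares therefore do not carry over directly, least of all to WT against MI-spheres. With all WT libraries, an absent call against WT is not read as the absence of a change of that size. Of changes of 2 it called 80% and 86.7% in those comparisons with WT. Levels are CPM with TMM factors over all 24 libraries, and levels of different genes were compared only as shares of summed TPM. DESeq2 1.42.0, other filters and scalings, a replicate block, flow cell, wider fits and leaving out libraries were tried. GC-content and length corrections and total counts were added after seeing the data. The 10 genes and the 3 gene lists were chosen with earlier results of these data known. From each list, at most 2 called genes per direction with the largest change were eligible to be named, and SMAD7, SMAD3, PMEPA1 and the other pathway checks were named in addition.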

Additional observations from a re-analysis of the deposited data

Results flagged for a closer look

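The response to TGFβ differed between MII- and MI-spheres for 5 genes by the interaction test of edgeR's quasi-likelihood model over all 12 sphere libraries. For TGFB2 the log2 response was -0.98 in MI- and -0.14 in MII-spheres, a difference of 0.836 (adjusted p = 0.00357), with 12 to 41 counts per library in MI-spheres. TGFBR3 had the largest difference of the 5, -1.615 (adjusted p = 0.000102). LTBP2 differed by -0.835 (adjusted p = 1.2e-07), and these 3 differences were called in each of the 12 fits that left out a library. LTBP1 differed by 0.232 (adjusted p = 0.038), a call kept in 2 of those 12 fits, with values from 0.15 to 0.25 and adjusted p from 0.0344 to 0.267. LTBP3 differed by -0.289 (adjusted p = 0.0372), a call kept in 8 of the 12 fits, with values from -0.45 to -0.20 and lost without MI Ctrl 3 (-0.29, adjusted p = 0.0586), MI TGFβ 2 (-0.20, 0.0935), MII Ctrl 2 (-0.21, 0.155) or MII TGFβ 2 (-0.28, 0.0691).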

How the results depend on the processing

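The calls of TGFBR1, TGFBR2 and LTBP2 in MI-spheres, of TGFBR1, TGFBR2 and LTBP3 in MII-spheres, and of TGFB2, TGFBR1, TGFBR2, LTBP1 and LTBP3 after SMAD depletion were kept under every alternative. VEPH1 in MII-spheres, which passed the main filter through the stimulated group, was not tested with at least 10 counts in every library. The alternatives that tested it kept its call. Between SLUG KO and WT the number of genes called was 1, and it became 2 with DESeq2, 3 with GC-content correction, 3 with GC-content and gene-length correction, 3 in the fit of all 18 libraries of the batch, and 0 to 6 with a library left out. The interaction count of 5 was 3 to 5 with a library left out. Same-numbered replicates did not deviate together (in no comparison did every pair correlate above 0.1), and with a replicate block 0 genes were called between SLUG KO and WT, LTBP1 at -1.04 (adjusted p = 0.115). With the block LTBP3 was also called in MI-spheres (-0.19, adjusted p = 0.0103) and TGFB1 was not between WT and MI-spheres (1.36, adjusted p = 0.056). Signs turned for uncalled values. In MI-spheres TGFB3 was -0.011 with at least 10 counts in every library and -0.11 with total counts, TGFB1 0.10 with GC-content correction and 0.028 with GC-content and length correction, and LTBP3 0.013 with the latter, and with a library left out TGFB1 ran from -0.11 to 0.030, TGFB3 from -0.066 to 0.16 and LTBP1 from -0.091 to 0.0046. LTBP2 between the sphere lines was 0.0017 with total counts. In SLUG KO LTBP2 was 0.0072 with DESeq2, 0.041 without the low-count filter, 0.15 with the replicate block, 0.19 with GC-content correction and 0.28 with GC-content and length correction, and with a library left out LTBP2 ran from -0.32 to 0.67, TGFB1 from -1.26 to 0.41, TGFBR1 from -0.060 to 0.31 and LTBP3 from -1.15 to 0.20. After SMAD depletion VEPH1 was 0.0021 with at least 10 counts in every library, 0.034 with GC-content correction, 0.027 with GC-content and length correction, 0.0097 with total counts and -0.096 to 0.060 with a library left out. Between WT and MI-spheres LTBP1 was -0.0094 with GC-content correction and -0.018 with both corrections, and LTBP2 was 0.10 with total counts, 0.046 in the fit of all 18 libraries and -0.77 to 0.24 with a library left out. The causes were not tested. VEPH1, TGFB2 in MI-spheres and TGFBR3 in MII-spheres rest on few counts, and 3 libraries a group and WT 2 limit the SLUG KO comparison.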
